A study of Fragaria vesca with 8 samples.

Results

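A set of 189 woodland strawberry genes, of 34009 in the count tables, was close to silent in fruit that received an empty vector and carried reads in both replicate libraries once FvVND4c or FvMYB46 was overexpressed. A gene entered the set when it had at most 3 counts in total over the 4 empty-vector libraries and at least 10 counts in both FvMYB46_OX libraries or in both FvVND4c_OX libraries. FvMYB46 alone switched on 140 of them, FvVND4c alone 29, and both constructs 20. Another 3 genes met the same counts but started in one of 2 windows, on chromosomes 4 and 5, and were left out. "Switched on" is used below only in the sense of this rule, and since the counts themselves chose the genes, the difference of each from its empty vector is a description and a test of it would restate the rule.

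RNA-seq was performed on *Fragaria vesca* fruit of the white-fruited type Yellow Wonder, with 2 libraries in each of 4 groups. Fruits were injected with *Agrobacterium* carrying *35S:FvVND4c* (FvVND4c_OX), *35S:FvMYB46* (FvMYB46_OX) or an empty vector. The labels name a separate control for each construct (FvVND4c_EV and FvMYB46_EV), and a construct with its control is called an experiment below. At least 5 fruits per treatment were frozen 7 days later. The 35S promoter is a viral promoter active in most plant cells, expression was transient, and infiltration with *Agrobacterium* was shared by all 4 groups, so no library came from untouched fruit. The study's methods call the replicates of all samples biological and name more of them per group than were analysed here. The labels do not say whether the 2 libraries of a group came from separate fruit pools, so p-values measure the spread between these libraries, which may be partly technical.

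VND proteins are NAC transcription factors that act as first-layer switches of secondary cell wall formation in *Arabidopsis*, where they trigger the differentiation of water-conducting vessel cells. MYB46 stands in the layer below: in *Arabidopsis* it is a direct target of these NAC proteins and in turn activates genes for cellulose, xylan and lignin synthesis. Overexpression of such a factor in a fleshy fruit is a way to ask which genes can be brought on in a tissue that does not normally use them. A gene without counts in the empty-vector libraries is a plain case of this, as nearly all of its reads come from the construct-treated fruit.

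Library totals ranged from 9765362 to 12845942 assigned counts, so that 10 counts corresponded to 0.800 to 1.09 CPM (the count of a gene per 1000000 counts of the library total after TMM scaling, which corrects totals for differences in composition). Between 21923 and 22402 genes had a count in 6 of the libraries, against 23336 and 23199 in the FvMYB46_OX libraries. The replicates differed by more than counting error in every group, with a chi-square per degree of freedom of 2.44 in FvVND4c_EV, 7.57 in FvVND4c_OX, 16.5 in FvMYB46_EV and 2.80 in FvMYB46_OX. The count tables give gene identifiers without names, and 0 of the 34009 identifiers matched the gene table at hand. No role can therefore be given to any switched-on gene, it was not checked whether one of them is FvVND4c or FvMYB46 itself, and the fruit label could not be read against tissue markers.

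More of the silent genes were switched on under FvMYB46 than under FvVND4c. The constructs belong to separate experiments, so construct and experiment cannot be told apart in these counts. The limit of 10 counts was also stricter for FvVND4c_OX, at 0.877 and 1.09 CPM, than for FvMYB46_OX, at 0.852 and 0.849 CPM. With a minimum of 1 CPM in its place, 122 genes were of FvMYB46 alone, 29 of FvVND4c alone and 16 of both. Of the 12241 genes outside the windows with at most 3 empty-vector counts, 160 (1.31%) were switched on by FvMYB46 and 49 (0.400%) by FvVND4c. Most silent genes stayed near 0 under either construct. In the FvMYB46_OX libraries 9409 had no count, 2040 had 1 to 3 counts in all and 632 had more than 3 without reaching the rule. In the FvVND4c_OX libraries the same groups held 10410, 1589 and 193 genes.

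The rule was also run the other way round, asking for genes with at most 3 counts over the 4 overexpression libraries and at least 10 in both empty-vector libraries of one experiment. Of 11593 genes with so few counts under the constructs, 0 (0.00%) passed in FvMYB46_EV and 2 (0.0173%) in FvVND4c_EV. This mirrored rule asks for few counts under both constructs, so a gene lost under 1 construct only cannot pass it, and these counts are not set against the gains.

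The genes switched on by both constructs made up 12.5% of the 160 under FvMYB46 and 40.8% of the 49 under FvVND4c. Over all 12241 silent genes, 0.400% were switched on by FvVND4c and 1.31% by FvMYB46. The 20 shared genes had to pass 1 limit set on the same 4 empty-vector libraries, and the counts themselves chose the genes, so these shares carry no test.

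The empty-vector floor was low in each class. Of the 140 FvMYB46-alone genes, 68 had no count in any empty-vector library, 29 had 1 count, 23 had 2 and 20 had 3. Among the 29 FvVND4c-alone genes the same totals were found for 13, 7, 7 and 2 genes. Of the 20 shared genes, 8 had no empty-vector count, 7 had 1 and 5 had 3. A gene without a count is not shown to be off: 3 counts over the 4 libraries, or 0.0622 CPM, is the level that a count of 0 still allows, and this limit covers counting error only.

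The summed level of each class describes its size in every library, with the empty-vector sums capped by the rule and the own-construct sums raised by it. For the classes of 1 construct, the sums under the other construct were also limited in part by the rule. The FvMYB46-alone class summed to 583 and 592 CPM in the FvMYB46_OX libraries, to 10.5 and 8.29 CPM in the FvVND4c_OX libraries and to between 2.30 and 3.27 CPM in the empty-vector libraries. The FvVND4c-alone class summed to 779 and 658 CPM under FvVND4c, to 4.09 and 4.08 CPM under FvMYB46 and to between 0.320 and 0.838 CPM in the empty-vector libraries. The smaller class thus had the higher summed level under its construct. The shared class summed to 156 and 167 CPM under FvMYB46, to 194 and 194 CPM under FvVND4c and to between 0.335 and 0.657 CPM in the empty-vector libraries. Because each library is a bulk of fruit tissue, a few cells with many copies and many cells with few cannot be told apart.

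**Figure D1:**
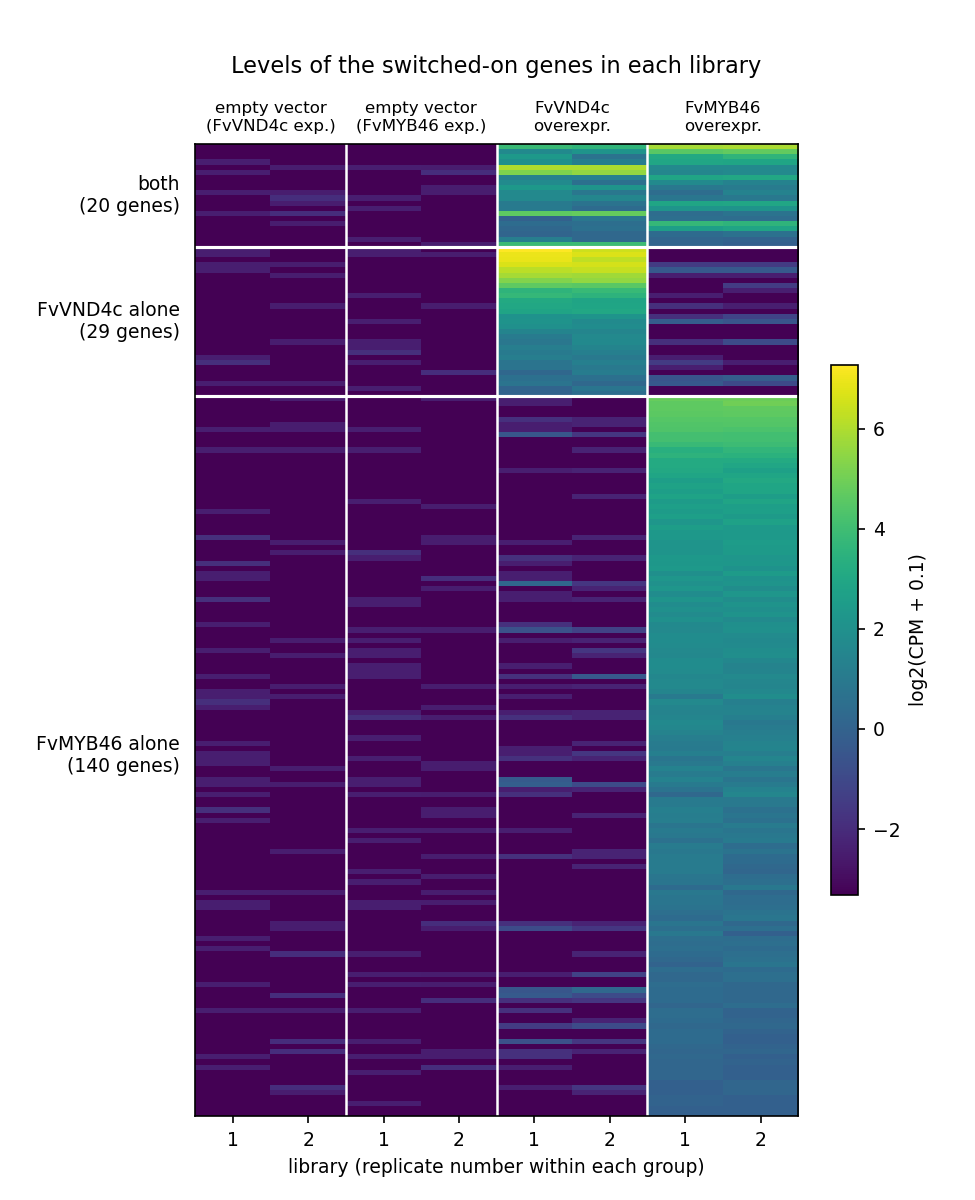
Levels of the 189 switched-on genes in each of the 8 libraries as log2(CPM + 0.1) in colour, with 1 column per library and 1 row per gene, grouped by class. Between 34 and 48 of the genes had a count in an empty-vector library, against 95 and 90 in the FvVND4c_OX libraries and 173 and 172 in the FvMYB46_OX libraries.

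Most FvMYB46-alone genes were switched on to a low level. Their mean CPM in the FvMYB46_OX libraries ran from 0.850 to 29.0, with a median of 2.21 and quartiles of 1.32 and 4.45. In all, 65 of the 140 lay under 2 CPM and 12 lay over 10 CPM. The 5 highest of the 140 genes held 22.0% of the summed level.

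The highest of the FvMYB46-alone genes was FvH4_2g08430, on chromosome 2 at 7341155 to 7343693 of the plus strand (v4.0.a2, as are all positions here). It had 331 and 350 counts in the FvMYB46_OX libraries, 1 and 0 in the FvVND4c_OX libraries, 0 and 1 in the FvVND4c_EV libraries and 0 and 1 in the FvMYB46_EV libraries. Its level under FvMYB46 was 29.0 ± 1.08 CPM (SD, n = 2), and 698 times the level over the 4 empty-vector libraries, with a counting interval of 193 to 5777 (exact, 95%). The next was FvH4_5g30130, on the minus strand of chromosome 5 at 21040494 to 21042974, with 296 and 367 counts under FvMYB46 and 1 and 0 under FvVND4c. It had no count in an empty-vector library, and at 28.2 ± 4.21 CPM (SD, n = 2) it was at least 453-fold higher than in those libraries, taken at the floor of 3 counts (exact lower limit from counting error 367, 95%). Neither gene had more than 1 count in any library outside FvMYB46_OX.

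The FvVND4c-alone genes were fewer but reached higher levels. Their mean CPM in the FvVND4c_OX libraries ran from 1.14 to 122, with a median of 3.79 and quartiles of 2.02 and 24.2. Of the 29, 10 were over 10 CPM and 7 under 2 CPM. The 5 highest genes held 71.1% of the summed level, and most of the RNA of this class therefore came from a handful of loci. These 5 are a larger part of their class than the 5 highest FvMYB46-alone genes are of theirs, so the 2 shares are not compared.

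The highest was FvH4_5g00350, on the minus strand of chromosome 5 at 244141 to 245394. It had 1764 and 820 counts in the FvVND4c_OX libraries, 0 and 0 in the FvMYB46_OX libraries and 2 over the 4 empty-vector libraries, 1 in each experiment. The 2 FvVND4c_OX replicates stood apart at 155 and 89.4 CPM, a mean of 122 ± 46.2 CPM (SD, n = 2), and the mean was 3029 times that of the empty-vector libraries (counting interval 838 to 25026.5). FvH4_1g25140, on the minus strand of chromosome 1 at 16936762 to 16942151, followed with 1433 and 956 counts, or 115 ± 15.2 CPM (SD, n = 2). It also had no count in either FvMYB46_OX library, and with 3 empty-vector counts its ratio was 1867 (counting interval 638 to 9060).

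Another gene of the same kind lies beside FvH4_5g00350 and was singled out after its values were seen. FvH4_5g00351 spans 245567 to 246264 of chromosome 5, 172 bases from FvH4_5g00350 and on the same strand. It had 1393 and 701 counts in the FvVND4c_OX libraries and no count in any of the other 6. The pair moved together between the replicates, replicate 1 being 1.73 times replicate 2 in FvH4_5g00350 and 1.60 times in FvH4_5g00351. The closeness of the pair, the shared strand and the parallel counts leave it undecided whether they are 2 genes or 1 transcript annotated as 2, which was not tested.

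Seen against all genes expressed in the same fruit, the switched-on genes were mostly weak. The 17830 genes with at least 10 counts in both FvMYB46_OX libraries had a median of 18.6 CPM, whereas the 160 switched on by FvMYB46 had a median of 2.30 CPM. For FvVND4c the medians were 20.5 CPM over 16886 genes and 3.06 CPM over the 49. To compare genes of different size, CPM was divided by the span of the gene in kilobases and ranked among the genes with at least 10 counts in both libraries. On this per-length scale the median percentile was 14.7 for the FvMYB46-alone genes and 28.7 for the FvVND4c-alone genes. For the shared genes it was 21.2 in FvMYB46_OX and 18.2 in FvVND4c_OX.

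A minority of switched-on genes ranked with well expressed genes. On the per-length scale 15 of the 140 FvMYB46-alone genes and 9 of the 29 FvVND4c-alone genes were above the 50th percentile. The highest percentile of a FvMYB46-alone gene was 79.5, and FvH4_2g08430, the highest in CPM, stood at 69.2. The adjacent pair on chromosome 5 stood at 96.3 for FvH4_5g00350 and 97.8 for FvH4_5g00351, so that genes with at most 2 counts over 4 empty-vector libraries were among the most abundant transcripts per length under FvVND4c. The long gene FvH4_1g25140, with a span of 5390 bases, stood at 81.5.

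**Figure D2:**
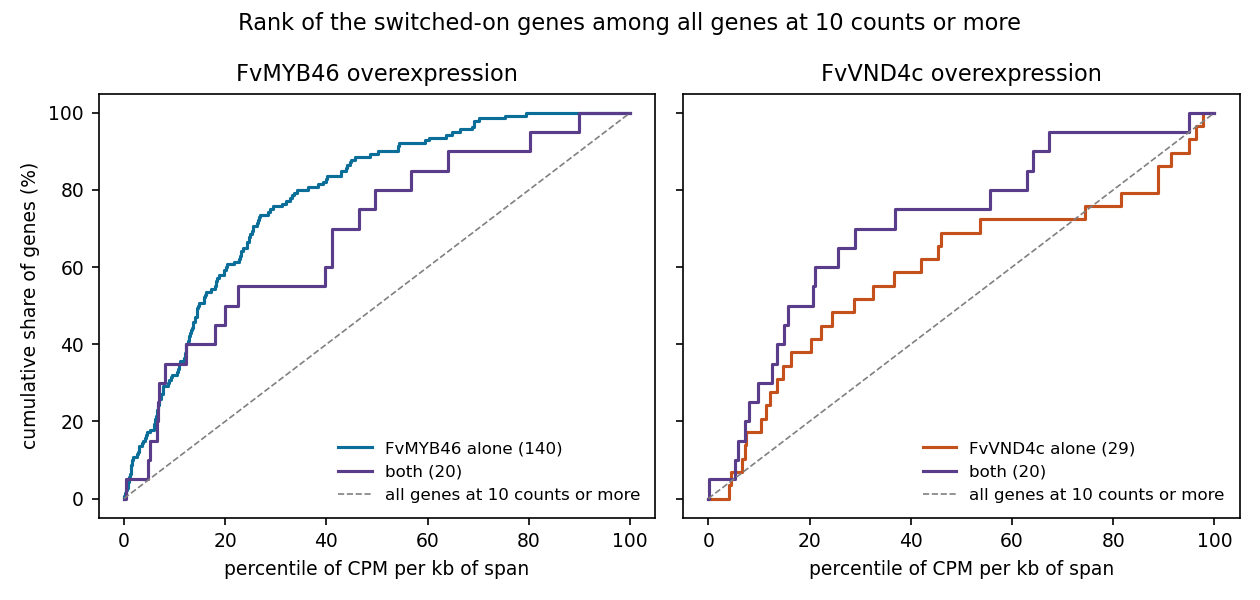
Cumulative share of switched-on genes (vertical axis, percent) by percentile of CPM per kilobase of span among genes with at least 10 counts in both libraries of the construct (horizontal axis), for FvMYB46 and FvVND4c, with a dashed diagonal for all such genes. The switched-on genes crowd at low percentiles, with medians of 14.7 for FvMYB46 alone and 28.7 for FvVND4c alone, and the FvVND4c-alone curve ends below the diagonal, as its highest genes reach 97.8.

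The replicate libraries gave closer values for the genes under FvMYB46 than under FvVND4c. The 2 FvMYB46_OX libraries were within 1.5-fold of each other for 143 of the 160 genes, and the 2 FvVND4c_OX libraries for 36 of the 49. Over all genes with at least 10 counts in both libraries the shares were 95.4% and 89.1%. The largest ratio between replicates was 2.53 among the FvMYB46-alone genes, 1.97 among the FvVND4c-alone genes and 3.45 among the shared genes, the last in FvVND4c_OX. Replicate 1 was the higher one for 92 of 160 genes under FvMYB46 and for 25 of 49 under FvVND4c, so neither library of a pair was the higher one throughout.

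The genes of 1 construct were mostly near the floor under the other, which the class rule sets in part. A gene with at least 10 counts in both libraries of the other construct falls in the shared class. Of the 140 FvMYB46-alone genes, 81 had no count in either FvVND4c_OX library, 127 had at most 3 counts in all and 28 had a count in both. Only 4 had more than 10 counts in all, and the highest total was 17. The mean was 0.700 counts per gene and library under FvVND4c and 0.241 in the empty-vector libraries, where the rule capped it, so these means are not set against each other. The summed level was 1.60% of that under FvMYB46.

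Low counts also prevailed for the FvVND4c-alone genes in the FvMYB46_OX libraries, again in part by the class rule. Of the 29, 14 had no count there, 21 had at most 3 in all, 10 had a count in both libraries and 4 had more than 10 in all, the highest total being 16, and the mean was 1.66 counts per gene and library. Their summed level under FvMYB46 was 0.568% of that under FvVND4c. Some genes missed the shared class narrowly, and "alone" refers to the rule only. By the edgeR quasi-likelihood test, some genes of each such class were called higher under the other construct than in its empty vector. Picked after their values were seen, FvH4_4g35250 of FvVND4c alone had 8 and 8 counts in FvMYB46_OX. FvH4_5g14440 of FvMYB46 alone had 7 and 2 counts in FvVND4c_OX. The rule capped the empty-vector counts, so these calls are a description. At least 5 counts in both libraries of the other construct were found for 4 FvVND4c-alone genes and 1 FvMYB46-alone gene, and 2 FvMYB46-alone genes and 0 FvVND4c-alone genes reached 10 counts in 1 of those libraries. With a minimum of 5 counts in place of 10 the shared class grew from 20 to 30 genes.

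**Figure D3:**
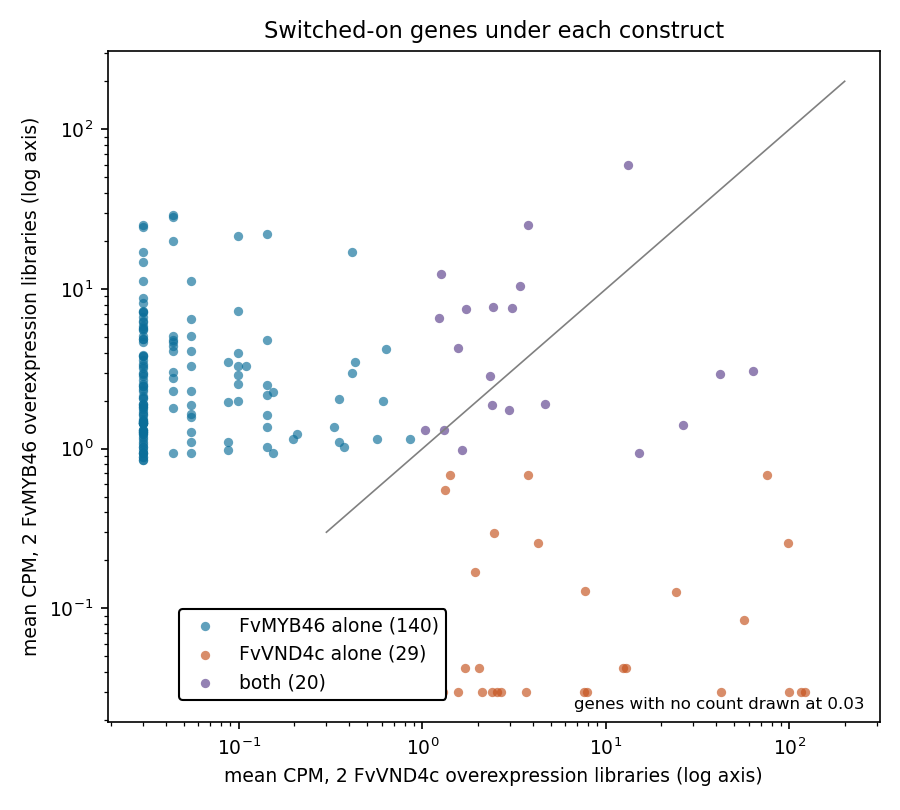
Mean CPM of each of the 189 genes in the 2 FvVND4c_OX libraries (horizontal, log axis) and the 2 FvMYB46_OX libraries (vertical, log axis), coloured by class, with genes without a count drawn at 0.03 CPM and a line of equal level. The 81 FvMYB46-alone and 14 FvVND4c-alone genes without a count under the other construct form the rows along the axes, and the 20 shared genes lie on both sides of the line.

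The rule used the contrast with the empty vector, so the calls against it restate the choice of genes, and nothing is read from them or from the share of all genes beside them. In edgeR's quasi-likelihood test with Benjamini-Hochberg adjustment, all 149 of the 160 genes under FvMYB46 that passed the filter on low counts were called higher than FvMYB46_EV, where 10.1% of 18766 genes tested were, and 11 were not tested. All 49 genes under FvVND4c were tested and called higher than FvVND4c_EV, where 4.17% of all genes were. DESeq2 called fewer, 142 of 160 tested and 45 of 47 tested.

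Whether the 2 constructs drove the shared genes to the same level is a question the rule does not settle, since it asked only for 10 counts under each. The shared genes did not share 1 level: of the 20, 9 were higher in FvMYB46_OX and 5 were higher in FvVND4c_OX, and 6 were not called. These are calls of the edgeR quasi-likelihood test at an adjusted p of 0.05 and at least 1 on the log2 scale. Over all 18766 genes tested, 6.33% were called higher in FvMYB46_OX and 3.19% higher in FvVND4c_OX. Of the genes of 1 construct, 3 of 129 tested for FvMYB46 alone and 2 of 29 for FvVND4c alone were not called different in this comparison. For these genes the class rule sets the direction in part, so their calls are a description and carry no test. Each construct had its own empty vector, and the labels do not say whether the 2 experiments were infiltrated together. Construct and experiment therefore cannot be told apart in this comparison. With both empty vectors near 0 counts, a difference between experiments cannot be taken out gene by gene.

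The shared gene with the highest level under FvMYB46 was FvH4_7g25521, on the minus strand of chromosome 7 at 19459748 to 19461477. It had 678 and 722 counts in the FvMYB46_OX libraries, 163 and 110 in the FvVND4c_OX libraries and none in the 4 empty-vector libraries. Its level was 59.5 ± 2.52 CPM under FvMYB46 and 13.1 ± 1.63 CPM under FvVND4c (SD, n = 2 each), at least 957-fold and at least 213-fold higher than in the empty-vector libraries taken at the floor (exact lower limits 777 and 172). Both FvMYB46_OX libraries were above both FvVND4c_OX libraries, and the difference was 2.17 on the log2 scale (SE 0.15, edgeR adjusted p = 1.86e-05).

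FvH4_4g34710, on the minus strand of chromosome 4 at 32329058 to 32330455, also had no empty-vector count. It had 279 and 313 counts under FvMYB46 and 36 and 40 under FvVND4c, or 25.2 ± 1.99 and 3.76 ± 0.852 CPM (SD, n = 2 each). Against the same floor the level was at least 405-fold higher under FvMYB46 (exact lower limit 328) and at least 59.4-fold higher under FvVND4c (exact lower limit 47.1). The 2 groups did not overlap, and the difference between constructs was 2.75 on the log2 scale (SE 0.23, edgeR adjusted p = 5.1e-05).

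Other shared genes ran the opposite way. FvH4_3g06540, on the plus strand of chromosome 3 at 3764660 to 3770214 and singled out after its values were seen, had 730 and 572 counts under FvVND4c, 36 and 36 under FvMYB46 and 3 over the empty-vector libraries. This made 64.0 and 62.4 CPM against 3.07 and 3.06 CPM, with hardly any spread within either group. The difference was -4.36 on the log2 scale (SE 0.18, edgeR adjusted p = 5.49e-08), the largest in size among the 20. The 5 genes called higher in FvVND4c_OX had log2 differences of -4.36 to -1.28 and adjusted p from 5.49e-08 to 0.0169 in that test.

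The 9 genes called higher in FvMYB46_OX had log2 differences of 1.28 to 3.28 and adjusted p from 1.86e-05 to 0.0398 in the same test. The gains were thus not proportional between the constructs, and the order of the shared genes by level was not the same. For the 6 genes not called, the log2 differences were -0.78 to 0.36 and the adjusted p from 0.1998 to 0.961. These 6 had few reads under both constructs, and a missed threshold does not show that their levels were equal.

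Of the 14 calls, 10 held under each of the 15 alternatives run and none changed direction. The other 4 were the weakest ones, with log2 differences between 1.28 and 1.56 in size. DESeq2 did not call 3 of these 4, and the fit without a filter on low counts did not call the other. These 4 calls were also lost without FvVND4c_OX replicate 2 and without either FvMYB46_OX replicate, so they depended on single libraries. The alternatives with no fold threshold and with unadjusted p only loosened the cut of the same fit, so they could not lose a call. Those that left out an empty-vector library kept both compared groups whole. They changed only the filter, the scaling and the shared estimate of spread, and were a weak check.

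FvH4_1g04770 and FvH4_1g04780 are a pair of shared genes on chromosome 1, 2408 bases apart on opposite strands, each with a span of 1328 bases, and were singled out after their values were seen. FvH4_1g04780 had 3.95 and 2.18 CPM under FvVND4c and 7.67 and 7.47 CPM under FvMYB46, a log2 difference of 1.28 (SE 0.32, edgeR adjusted p = 0.0188). DESeq2 did not call this gene, and its call is among those that did not hold under every alternative. FvH4_1g04770 had 3.07 and 1.75 CPM under FvVND4c and 1.28 and 2.46 CPM under FvMYB46, and its groups overlapped, with a log2 difference of -0.39 (SE 0.41, edgeR adjusted p = 0.583). Genes of equal span that lie side by side can be near-identical copies that share reads, which was not tested here, so the division of reads between them is uncertain.

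**Figure D4:**
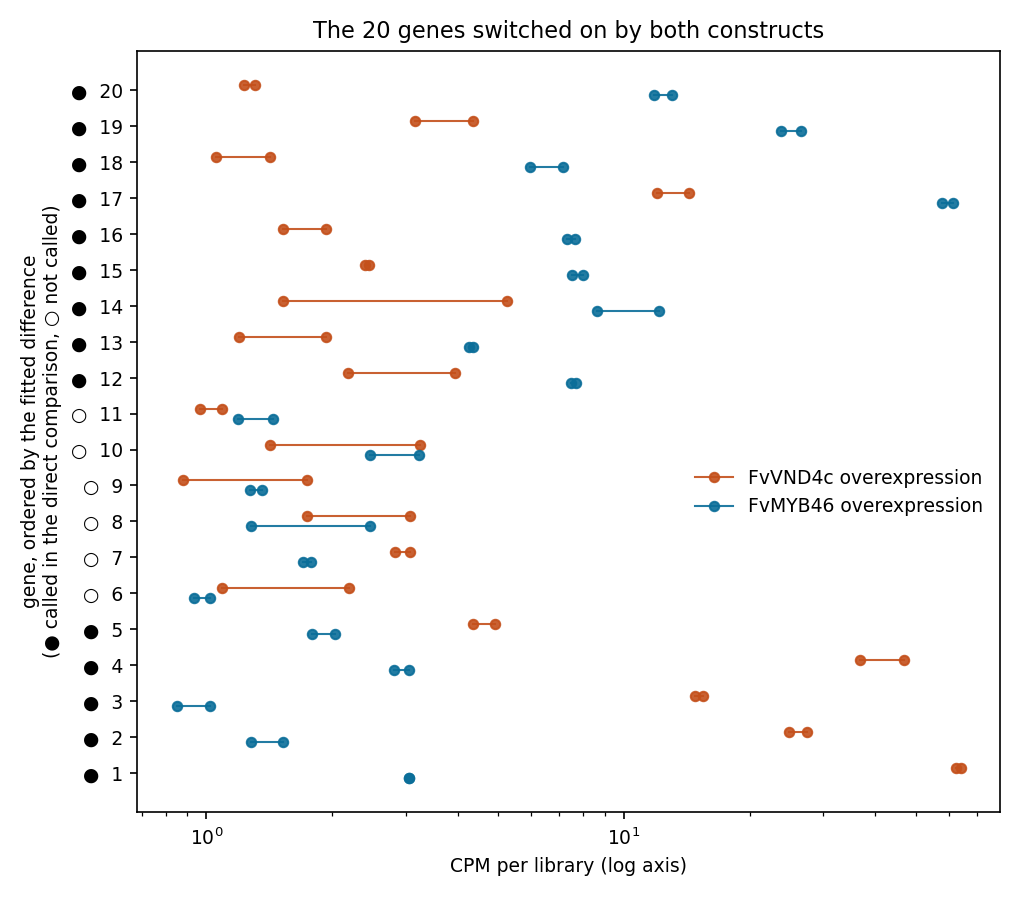
CPM in each of the 4 overexpression libraries (horizontal, log axis) for the 20 genes switched on by both constructs, ordered by the fitted difference, with filled circles beside genes called in the direct comparison and open circles beside the others. The 5 lowest genes have both FvVND4c_OX libraries to the right and the 9 highest have both FvMYB46_OX libraries to the right, while the 6 between differ less. Among all 20, both FvMYB46_OX libraries lie above both FvVND4c_OX libraries for 10 genes and the reverse holds for 7, so some of the 6 are also separated.

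The switched-on genes differed from the silent genes in several features that the rule did not use, given here as descriptions. Their median span was 1882 bases, against 1274 bases for all silent genes and 2297 bases for all genes. By class it was 2001 bases for FvMYB46 alone, 1599 for FvVND4c alone and 1794.5 for both. Identifiers that do not end in 0, and so fall between the regular steps of the numbering, made up 23.8% of the switched-on genes, 50.9% of the silent genes and 28.2% of all genes. The median span of FvVND4c alone lay nearer to that of the silent genes and that of FvMYB46 alone nearer to that of all genes. A minimum in raw counts favours long genes, and its part in the spans was not tested.

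Few of the loci overlapped another gene. Of the 189, 11 (5.82%) did, 9 of them with a gene on the opposite strand, against 8.02% of silent genes and 11.7% of all genes. Whether counting used strand is not stated by the labels or methods, so it is not known whether reads of those 9 and of their partners were told apart. The rest of the 11 overlap a gene on the same strand, where strand does not separate the reads. The genes named above overlap no other gene.

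The set held genes of all 7 chromosomes. Chromosomes 1 to 7 held 24, 24, 28, 30, 28, 28 and 27 of the switched-on genes. These were 12.7%, 12.7%, 14.8%, 15.9%, 14.8%, 14.8% and 14.3% of the set, against 11.1%, 14.3%, 16.4%, 13.9%, 13.9%, 19.0% and 11.2% of all genes. Of the 189, 26 had another switched-on gene within 50000 bases, and 7 pairs were direct neighbours, 6 of them in the same class. The median distance to the next switched-on gene was 756810 bases. Neither this distance nor the numbers of neighbours and of same-class pairs were compared with those of other genes or with the class sizes.

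The values just inside and just outside the rule form a continuum. Under FvMYB46, 23 genes with 2 empty-vector counts, 25 with 3, 24 with 4 and 28 with 5 had at least 10 counts in both libraries. The lower of the 2 FvMYB46_OX libraries was at 8 counts in 16 silent genes, at 9 in 14, at 10 in 15 and at 11 in 7. Under FvVND4c the genes numbered 7, 7, 6 and 11 for the same empty-vector totals and 4, 2, 4 and 3 for the same lower counts. The set is therefore a range cut from a graded distribution and not a separate class of genes.

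The deposited TPM tables hold a shorter list of genes than the count tables. Of the 12241 silent genes, 67 are listed there, and all 67 are switched-on genes: 38 of FvMYB46 alone, 13 of FvVND4c alone and 16 of both. The other 122 switched-on genes are listed only with counts, and the highest of these had a mean of 4.24 CPM under its construct. The stronger part of the set is thus visible on both scales, and in TPM, as deposited, FvH4_5g00351 reached 497 and 291 in the FvVND4c_OX libraries.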

How the data were processed

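RNA-seq libraries of 4 groups with 2 libraries each were analysed. Per the labels and the study's methods, reads were trimmed with fastp 0.20.1, mapped with HISAT2 2.2.1 to *F. vesca* v4.0.a2, freed of PCR duplicates with SAMtools 1.9 and counted per gene with featureCounts 2.0.3. The authors deposited raw counts for 34009 genes and TPM values for fewer genes, in 1 file of each kind per library. The TPM values equal the counts divided by the gene span and rescaled per library.

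Counts chose the genes. CPM is the count per 1000000 of the TMM-scaled library total. The constructs were compared in edgeR 4.0.16 (R 4.3.3; quasi-likelihood test, TMM scaling, filterByExpr, all 8 libraries in 1 fit by group), with p-values adjusted over all 18766 genes tested, a threshold of 0.05 and at least 1 on the log2 scale. The fit was tested on simulated counts. Intervals of ratios are exact and cover counting error only. In each class the 2 genes with the highest mean CPM are named, the shared class by the lower of its group means. The rule, the classes and the alternatives were chosen with earlier results of these data known.

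The study's methods name DESeq2, which was run (version 1.42.0) as an alternative. Others were other limits of the rule, RLE scaling, no filter on low counts, a replicate block, the overexpression libraries alone, no fold threshold, unadjusted p and each library left out. Lists of cell wall, phenylpropanoid and marker genes were not run because no names were at hand, and gene sequences were not used here.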

Additional observations from a re-analysis of the deposited data

How the results depend on the processing

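The size of the set depended on the limits. With no empty-vector count allowed it held 89 genes (68 FvMYB46 alone, 13 FvVND4c alone, 8 both), and with up to 10 allowed 358 (256, 57 and 45). With the limit of 3 set on the empty vector of the own experiment it held 334 (255 and 54 of 1 construct alone). A minimum of 5 counts gave 322 (249 FvMYB46 alone) and of 20 counts 114 (83 FvMYB46 alone, 8 both). FvMYB46 alone was the largest class each time. With each library left out in turn the set held 193 to 233 genes, 139 to 174 of FvMYB46 alone, 29 to 39 of FvVND4c alone and 20 to 28 of both. Leaving out a library can only loosen the rule, so the set as a whole could not shrink.

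In the direct comparison of the shared genes, leaving out a library gave 6 to 9 genes higher in FvMYB46_OX and 4 to 5 higher in FvVND4c_OX. The 6 arose without FvVND4c_OX replicate 2 and without either FvMYB46_OX replicate. DESeq2 gave 7 and 4. The labels give the groups the same replicate numbers but no shared source. A fit with the replicate number as a block gave 9 and 5, as without it. Replicate differences of the 2 overexpression groups correlated across genes at r = 0.121. Without a fold threshold 1972 and 1545 of all genes were called, against 1187 and 599. A minimum of 10 counts is 0.800 to 1.09 CPM, and a minimum of 1 CPM in its place left 167 genes.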

Other observations

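The genes directly next to a switched-on gene were looked at after the data were seen. Of 306 such genes for FvMYB46, 158 passed the filter on low counts and 37 of these (23.4%) were called higher than FvMYB46_EV by the edgeR quasi-likelihood test, against 10.1% of all genes tested. For FvVND4c, 57 of 93 passed and 11 (19.3%) were called higher than FvVND4c_EV, against 4.17%. Genes that were switched on themselves were not counted. Whether counting used strand is not stated, and the share of reads running past the end of a gene was not tested.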
